A study of Mus musculus with 6 samples.

Results

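The genes described here were the collagen chains outside collagen VI, taken as every protein-coding gene of the deposited table whose symbol has the form Col, a number, the letter a and a second number, without the Col6a genes. The rule gave 38 chains of 49548 genes. It used names and not measured values, so no single chain was picked for its difference between the groups. The set of genes was itself chosen with earlier results of these data known. The 6 Col6a chains were left out because the Cre driver of the study marks cells by Col6a1.

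The libraries came from Col6a1-cre, Rosa26-mTmG mice on the C57/BL6 strain that had developed colonic adenomas under AOM/DSS, an azoxymethane injection at 8 to 10 weeks of age followed by cycles of dextran sodium sulfate in the drinking water. In this reporter, Cre replaces membrane Tomato with GFP, so Col6a1+ CAFs (cancer-associated fibroblasts) were the GFP+ cells and Col6a1- CAFs the Tomato+ cells of such tumors, both sorted after the removal of cells with CD45, EpCAM, CD31 or Ter119. Each group had 3 libraries, made from tumors pooled over 5 to 6 mice, and both groups shared the genotype, the strain and the treatment. The Col6a1Cre line is known to be active in perivascular cells as well as in fibroblasts, so GFP marks more than a single cell type.

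Collagens are secreted as trimers of chains that wind into a triple helix. Fibrillar collagens are trimmed outside the cell, pack into banded fibrils and give the stroma its tensile strength, whereas collagen IV forms the meshwork of basement membranes under epithelium and around vessels and muscle cells, and other collagens decorate fibrils, join the layers or stay in the plasma membrane. In the colon, most of these chains are made by the mesenchymal cells of the lamina propria and the submucosa, and a collagen-rich stroma is a familiar feature of colorectal tumors.

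The chains of collagen IV sit in pairs that start head to head, and the promoters of the most abundant pair are shown first because both chains differed strongly between the CAFs. Col4a1 and Col4a2 start 21 bases apart on opposite strands of chromosome 8, and their first 22 bases overlap. The windows, from RefSeq on GRCm38.p6 (the build of mm10), run from 250 bases before to 50 bases after each start, each on the strand of its gene, at chr8:11312777-11313076 (minus strand) and chr8:11312555-11312854 (plus strand). Capitals mark the 78 bases that both windows hold, which read as reverse complements of each other.
Col4a1: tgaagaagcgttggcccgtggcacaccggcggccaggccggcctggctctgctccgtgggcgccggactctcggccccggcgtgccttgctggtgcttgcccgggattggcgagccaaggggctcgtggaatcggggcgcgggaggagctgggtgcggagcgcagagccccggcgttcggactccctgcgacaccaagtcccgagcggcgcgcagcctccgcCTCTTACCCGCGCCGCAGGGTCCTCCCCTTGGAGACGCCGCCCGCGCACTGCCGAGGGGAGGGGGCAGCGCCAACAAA
Col4a2: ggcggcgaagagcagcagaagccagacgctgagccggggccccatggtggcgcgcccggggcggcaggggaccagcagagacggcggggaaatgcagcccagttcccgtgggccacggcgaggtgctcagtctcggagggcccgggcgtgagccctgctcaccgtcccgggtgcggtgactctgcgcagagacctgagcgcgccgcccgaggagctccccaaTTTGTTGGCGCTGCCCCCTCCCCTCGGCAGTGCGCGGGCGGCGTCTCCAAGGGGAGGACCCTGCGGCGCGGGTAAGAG
Bases G and C made up 74.0% of the Col4a1 window and 73.7% of the Col4a2 window, against a median of 52.7% over 32851 windows of the table.

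The next windows belong to Col5a3 (chr9:20815018-20815317, minus strand), the chain with the smallest adjusted p, and to Col1a2 (chr6:4505368-4505667, plus strand), a chain of collagen I, whose transcription is known to use CCAAT-binding factors. The Col1a2 window follows a RefSeq start downstream of the gene start in the deposited table (chr6:4504814). The whole window thus lies within the gene as given there. Capitals mark every match on either strand to CCAAT, to GGGCGG (a GC box) or to TATAAA, 3 motifs that do not overlap one another in these windows.
Col5a3: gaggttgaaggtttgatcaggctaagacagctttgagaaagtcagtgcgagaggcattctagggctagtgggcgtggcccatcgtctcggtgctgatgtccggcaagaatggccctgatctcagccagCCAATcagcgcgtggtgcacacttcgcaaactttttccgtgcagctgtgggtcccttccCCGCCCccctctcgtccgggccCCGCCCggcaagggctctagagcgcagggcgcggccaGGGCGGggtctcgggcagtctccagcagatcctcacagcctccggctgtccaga
Col1a2: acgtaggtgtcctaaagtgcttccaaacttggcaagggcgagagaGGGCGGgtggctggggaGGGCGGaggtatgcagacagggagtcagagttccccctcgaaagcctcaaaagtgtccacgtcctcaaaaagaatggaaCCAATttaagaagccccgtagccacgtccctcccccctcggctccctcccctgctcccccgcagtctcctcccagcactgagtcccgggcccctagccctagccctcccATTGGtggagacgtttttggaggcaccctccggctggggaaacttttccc
Windows were found for 29 of the 38 chains, 31 windows in all. CCAAT stood in 12 of these 31 windows and in 37.4% of all windows. GGGCGG stood in 18 of the 31 windows and in 35.7% of all windows, and TATAAA in 5 of the 31 and in 13.6% of all. A match is only a match of letters and was not related to expression.

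Levels are given as normalized counts, which are read counts of a gene after division by the size factor of the library. QuantSeq reads the 3′ ends of polyadenylated transcripts, so a level counts transcript ends. The normalized counts summed to 3039152 to 3425249 per library over all genes. Between 2568312 and 4519185 reads were estimated for 5 libraries from the regular spacing of their low values, and the sixth gave no estimate. One library, Col6a1+ replicate 1, stood apart with 14530 genes detected at 1 normalized count or more, against 18770 to 20511 in the other libraries. Col6a1 itself, the gene behind the sort, held 861, 1287 and 1941 normalized counts in Col6a1+ CAFs and 182, 321 and 102 in Col6a1- CAFs.

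Other cell types were read from lists of their markers. Of 8 mural markers, 8 were called higher in Col6a1+ CAFs, and their summed level was 41577 to 90981 there against 1147 to 2141 in Col6a1- CAFs, where the pericyte gene Higd1b was at 0 in every library. Of 8 smooth muscle markers, 6 were called higher, with sums of 12621 to 25196 against 504 to 2483. Of 12 epithelial markers, 9 were called lower in Col6a1+ CAFs, with sums of 5897 to 6504 against 20356 to 35360, although EpCAM+ cells were gated out of both. Of 8 fibroblast markers, Pdgfra and Thy1 were called higher and none lower, with sums of 11667 to 12436 against 4395 to 7141, and Dcn and Vim were present in every library. Within this list Fbln1 (-2.21) and Mfap5 (-2.30) had negative log2 fold changes and Dpt had 0.01, none of them called. Immune markers summed to 21 to 47 against 81 to 151 with none called, erythroid markers to 110 to 1713 against 281 to 482, glial markers to 55 to 73 against 29 to 76 and mesothelial markers to 1 to 7 against 7 to 33, none of the last 3 lists with a call. Of 10 endothelial markers, 8 had a negative fold change, with a list median of -1.13 on the log2 scale and none of the 8 called, whereas Flt1 and Eng had 2.21 each and Eng alone was called higher. Through Flt1 and Eng the summed level was 702 to 913 against 264 to 677. The mural, smooth muscle, epithelial and fibroblast sums were separate between the groups, and their part in the differences between collagen chains was not tested. In such bulk libraries, fewer cells of a type and less RNA per cell cannot be told apart.

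The question was how the collagen transcript level of Col6a1+ CAFs compared with that of the other CAFs of such tumors. Summed over the 38 chains, Col6a1+ CAFs held 69637, 59304 and 72485 normalized counts and Col6a1- CAFs 16049, 16034 and 7689. This was 1.87% to 2.12% of a Col6a1+ library and 0.238% to 0.528% of a Col6a1- library, without overlap between the groups. The number of chains detected was alike, 25 to 33 in Col6a1+ libraries and 27 to 34 in Col6a1- libraries, and the higher sum of Col6a1+ libraries was not accompanied by more detected chains.

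Of the 38 chains, 37 had at least 1 normalized count and were tested, and Col26a1 was at 0 in every library. With limma over 26402 genes and an adjusted p under 0.05, 13 chains were called higher in Col6a1+ CAFs, against 2.66% of all genes tested, and 2 were called lower, against 1.96% of all genes. For 17 of the 37 chains the lowest Col6a1+ library exceeded the highest Col6a1- library, against 7.91% of all genes, and for 3 chains the groups were apart in the other direction, against 11.6% of all genes. The median log2 fold change of the chains was 1.30, that of all genes tested -0.27. With an unadjusted p under 0.05 and a log2 fold change beyond 1, 17 chains were higher, against 6.09% of all genes, and 3 lower, against 8.61% of all genes, so the count of lower chains stood near the general share. A total of 26 chains had a positive fold change, 10 a negative one, and Col20a1 none.

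**Figure D1:**
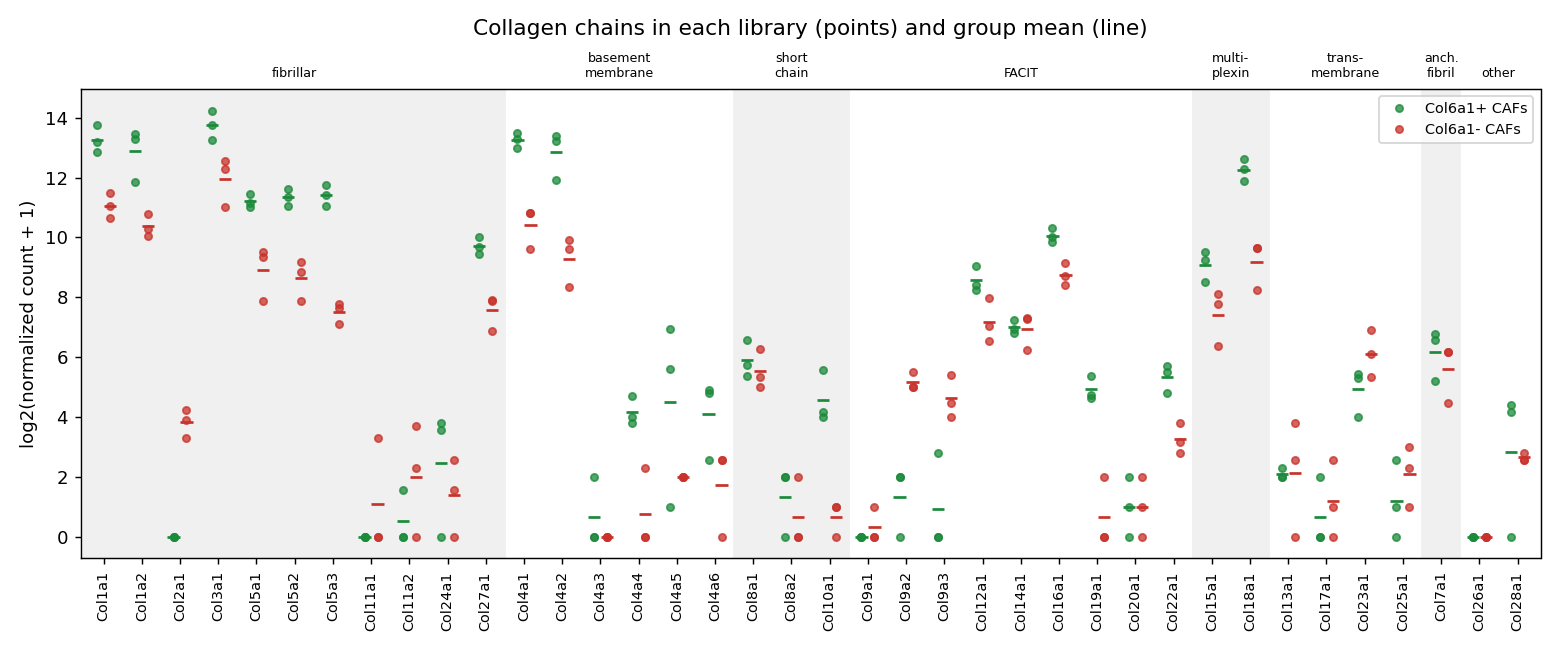
Normalized counts of the 38 chains on a log2 scale (value plus 1), ordered by family, with a point for each library and a line at each group mean. The green points of Col6a1+ CAFs stand above the red points of Col6a1- CAFs without overlap for most fibrillar chains, Col4a1, Col4a2, Col16a1, Col15a1 and Col18a1, whereas the order is turned for Col2a1, Col9a2 and Col9a3.

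Libraries of the same replicate number were read as pairs, which the labels do not state. A limma fit with the replicate number as a block called none of the 15 chains over all genes tested. Their adjusted p was 0.0612 to 0.118, and 0.0612 was also the smallest value of any gene. When the block was combined with a minimum mean of 10, 14 chains were called higher and 1 lower. Among them were 13 of the 15 chains, beside Col12a1 and Col15a1. Leaving out Col6a1- replicate 1 left 0 chains called, with a smallest adjusted p of 0.0503 among the chains, and the calls over all genes fell from 703 higher and 517 lower to 11 and 1. The fold changes stayed large in that fit, at 3.04 for Col4a1, 3.96 for Col5a3 and 3.32 for Col18a1, and 3 of the 15 chains moved closer to 0. Of the 6 fits that each left out a library, 5 called Col5a3, Col4a1 and Col18a1, 4 called Col1a1 and Col5a2, 3 called Col4a2, 1 called Col1a2, Col27a1, Col10a1, Col2a1 and Col9a2, and 0 called Col5a1, Col3a1, Col16a1 and Col19a1. For the chains, values with the block are given beside each call below.

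Fibrillar collagens were the family with the most calls, 7 of 11 chains higher and 1 lower. Collagen I, the main fibril of connective tissue, was higher for both of its chains. Col1a1 (chr11:94936224-94953042) held 7467, 9276 and 13902 normalized counts in Col6a1+ CAFs and 2113, 2882 and 1590 in Col6a1- CAFs. The means were 10215 ± 3319 and 2195 ± 650 (SD, n = 3 each), and the log2 fold change was 2.21 ± 0.34 (SE) with an adjusted p of 0.00538 by limma (0.0779 with the block). The lowest Col6a1+ library thus lay well above the highest Col6a1- library. Col1a2 (chr6:4504814-4541544) held 3685, 10112 and 11314 against 1241, 1781 and 1050 normalized counts. Replicate 1 of Col6a1+ CAFs was the low one, and the log2 fold change was 2.50 ± 0.43 with a limma adjusted p of 0.00926 (0.0788 with the block).

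Collagen III forms the thin reticular fibrils of distensible organs such as the gut and vessels. Its single chain Col3a1 (chr1:45311538-45349706) held 19289, 13946 and 9791 normalized counts in Col6a1+ CAFs and 5944, 4992 and 2059 in Col6a1- CAFs. The groups did not overlap, and within both the third replicate was the lowest. The log2 fold change of 1.81 ± 0.43 was the smallest among the called fibrillar chains, with a limma adjusted p of 0.0394 (0.0612 with the block).

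Collagen V starts collagen I fibrils and limits their width, and all 3 of its chains were higher. Col5a1 (chr2:27886425-28039514) held 2779, 2280 and 2065 normalized counts in Col6a1+ CAFs against 732, 658 and 234, for a log2 fold change of 2.28 ± 0.41 and a limma adjusted p of 0.0122 (0.0722 with the block). Col5a2 (chr1:45374321-45503282), which lies tail to tail with Col3a1 at 24614 bases, held 3157, 2115 and 2622 against 578, 460 and 234, a log2 fold change of 2.71 ± 0.36 and a limma adjusted p of 0.00254 (0.0612 with the block). The third chain, Col5a3 (chr9:20770050-20815067), whose product has a narrower tissue range than the others, held 2742, 2110 and 3468 normalized counts against 201, 218 and 138. Its means were 2773 ± 680 and 186 ± 42.1 (SD, n = 3 each). The log2 fold change of 3.89 ± 0.31 had the smallest adjusted p of all chains, 0.000336 by limma (0.0612 with the block).

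Col27a1 (chr4:63214004-63334991), a fibrillar chain known from cartilage and developing tissues, held 705, 830 and 1033 normalized counts in Col6a1+ CAFs and 235, 241 and 118 in Col6a1- CAFs. Its log2 fold change was 2.16 ± 0.35 with a limma adjusted p of 0.00702 (0.0916 with the block). Collagen II and collagen XI, the fibrils of cartilage, went the other way or were close to absent. Col2a1 (chr15:97975602-98004695) was at 0 in all 3 Col6a1+ libraries and held 9, 14 and 18 normalized counts in Col6a1- CAFs. A level of 0 was taken to allow up to 3 normalized counts per library, and the Col6a1- mean was 4.56-fold this limit. The error of that mean is not included, so this is not a strict lower bound. The limma adjusted p was 0.0342 (0.0981 with the block). Its partners in collagen XI did not pass the test. Col11a1 was at 0 in 5 libraries and at 9 in Col6a1- replicate 3, and Col11a2 held 0, 2 and 0 normalized counts against 0, 12 and 4.

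The collagen IV network had 2 of 6 chains called, both higher, and no chain with a negative fold change. Col4a1 (chr8:11198423-11312826) held 11558, 8147 and 10091 normalized counts in Col6a1+ CAFs and 1818, 1818 and 785 in Col6a1- CAFs. The means were 9932 ± 1711 and 1474 ± 596 (SD, n = 3 each), and the log2 fold change was 2.84 ± 0.36 with a limma adjusted p of 0.00231 (0.0612 with the block). Col4a2 (chr8:11312805-11449287), the other chain of the ubiquitous collagen IV trimer, held 9608, 3858 and 10680 against 967, 782 and 327. Its log2 fold change was 3.55 ± 0.48 with a limma adjusted p of 0.00288 (0.0789 with the block). The transcripts of both chains, whose start region is printed above, were thus higher in every Col6a1+ library.

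Col4a3, Col4a4 and Col4a5 form the specialised collagen IV of the kidney glomerulus, where their loss causes Alport syndrome, and Col4a6 pairs with Col4a5 in other basement membranes, among them those of smooth muscle. Col4a3 was at 0 in 5 libraries and at 3 in Col6a1+ replicate 3. Its neighbour Col4a4, which starts 72 bases away on the other strand, held 15, 13 and 25 normalized counts in Col6a1+ CAFs and 0, 4 and 0 in Col6a1- CAFs. Although these libraries did not overlap, the log2 fold change of 3.40 ± 1.03 missed the threshold in limma (adjusted p = 0.102). Col4a5, on chromosome X, held 1, 122 and 48 normalized counts against 3, 3 and 3, so a single Col6a1+ library lay below the Col6a1- libraries. The adjusted p was 0.434, and without Col6a1+ replicate 1 it was the lowest over the alternatives, 0.0291 by limma. Its head-to-head neighbour Col4a6, whose start lies 1309 bases away, held 5, 29 and 27 against 0, 5 and 5, again with Col6a1+ replicate 1 as the low library, and was not called (adjusted p = 0.337 by limma).

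**Figure D2:**
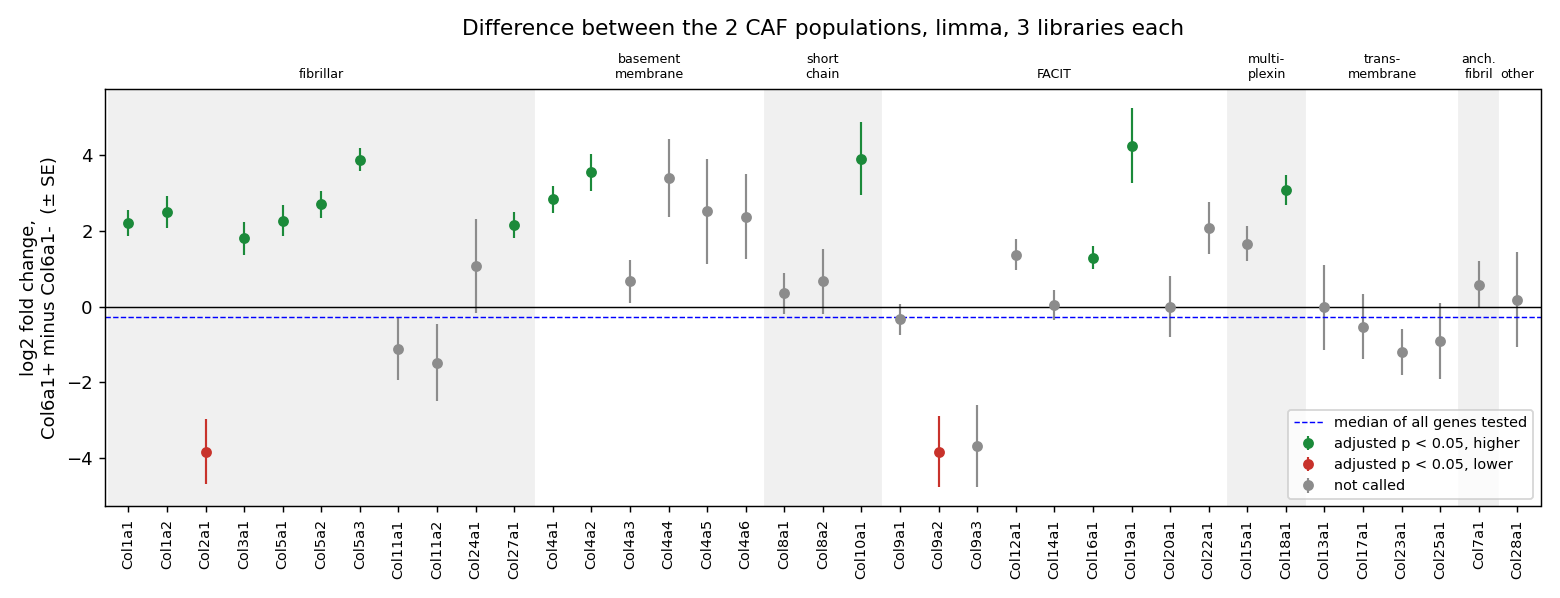
Log2 fold change of each of the 37 tested chains (Col6a1+ minus Col6a1- CAFs) with its standard error, ordered by family, with called chains in color and the median of all genes as a dashed line. The 13 chains called higher lie between 1.30 and 4.26, and Col2a1 and Col9a2 stand near -3.83 and -3.84.

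Multiplexins join basement membranes to the fibrils below. Col18a1 (chr10:77052178-77166548), the source of the endostatin fragment, held 6266, 3795 and 5048 normalized counts in Col6a1+ CAFs and 798, 805 and 301 in Col6a1- CAFs. Its log2 fold change was 3.09 ± 0.40 with a limma adjusted p of 0.00232 (0.0635 with the block). The gene shares 8825 bases with Slc19a1 on the other strand, which held at most 33 normalized counts. Col15a1 held 727, 362 and 614 against 218, 274 and 83 without overlap. Its log2 fold change of 1.67 ± 0.46 missed the threshold (limma adjusted p = 0.0737, 0.217 with the block). It passed in some alternatives, with 0.0432 by limma-voom and 0.0425 by limma with the block and a minimum mean of 10.

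FACIT collagens sit on the surface of fibrils, and here 2 of 9 chains were called higher and 1 lower. Col16a1 (chr4:130047840-130099283), which associates with fibrils and with microfibrils, held 915, 1277 and 1028 normalized counts against 419, 563 and 338. Its log2 fold change of 1.30 ± 0.30 was the smallest among all called chains, with a limma adjusted p of 0.0332 (0.0782 with the block). Col12a1, which links collagen I fibrils to other matrix, held 341, 524 and 305 against 252, 131 and 93, without overlap but not called (log2 fold change 1.38 ± 0.41, limma adjusted p = 0.0972, 0.187 with the block). With the block and a minimum mean of 10, Col12a1 passed (limma adjusted p = 0.0407). Col14a1, its close relative on collagen I fibrils, held 111, 152 and 122 against 155, 159 and 75 normalized counts. The groups overlapped throughout, and the log2 fold change was 0.05 ± 0.40 (limma adjusted p = 0.961).

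At low levels, Col19a1 (chr1:24261890-24587472), a chain of basement membrane zones, held 26, 41 and 24 normalized counts in Col6a1+ CAFs and 0, 0 and 3 in Col6a1- CAFs. The ratio of the sums was 30.3, with a binomial 95% interval of 10.1 to 150 that takes normalized counts as reads. This interval covers counting error only. The limma adjusted p was 0.0366 (0.118 with the block). Collagen IX decorates the fibrils of cartilage, and its chains were low in Col6a1+ CAFs. Col9a2 (chr4:121039385-121055322) held 0, 3 and 3 against 31, 31 and 45 normalized counts, a log2 fold change of -3.84 ± 0.94 and a limma adjusted p of 0.0454 (0.111 with the block). Col9a3 held 0, 6 and 0 against 42, 21 and 15, also without overlap, and was not called (log2 fold change -3.69 ± 1.09, limma adjusted p = 0.0933). The remaining partner, Col9a1, was at 0 in 5 libraries and at 1 in Col6a1- replicate 3. The epithelial markers above were higher in the same Col6a1- libraries as Col2a1, Col9a2 and Col9a3, and their part in these differences was not tested.

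Among the short chain collagens, Col10a1 (chr10:34389981-34397085), known from the hypertrophic zone of growth cartilage, held 15, 17 and 47 normalized counts in Col6a1+ CAFs and 1, 0 and 1 in Col6a1- CAFs. The ratio of the sums was 39.5, with a binomial 95% interval of 10.6 to 332 for counting error that takes normalized counts as reads. The limma adjusted p was 0.0485 (0.109 with the block). All 7105 bases of Col10a1 lie within Nt5dc1 on the other strand, which held 0 to 21 normalized counts, and whether the counting used strand is not given in the sources used here. Without strand, reads of these genes cannot be told apart.

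The 12 chains not named so far by their values had no call, and 11 of them were tested. Of these 11, Col22a1, which sits at tissue junctions, was the only one whose libraries did not overlap, with 51, 45 and 27 against 13, 8 and 6 normalized counts and a limma adjusted p of 0.135. It is named here after its values were seen. The 4 transmembrane chains, Col13a1, Col17a1, Col23a1 and Col25a1, had negative fold changes with a median of -0.72 and none called. Col13a1 stood at -0.02, and without 1 library Col13a1 reached 0.81 and Col17a1 0.17. Col23a1 was the most abundant of them with 39, 43 and 15 against 119, 40 and 68. Col7a1, the anchoring fibril of the skin and other stratified epithelia, held 36, 108 and 95 against 71, 72 and 21. The chains of collagen VIII, found in vessel walls, had log2 fold changes of 0.35 ± 0.53 for Col8a1 and 0.67 ± 0.85 for Col8a2, neither called. The other chains, Col20a1, Col24a1 and Col28a1, held at most 20 normalized counts in any library. Col24a1, a fibrillar chain, held 0, 13 and 11 against 0, 2 and 5, and Col28a1 0, 20 and 17 against 5, 5 and 6. In both, as in Col4a5 and Col4a6, the low Col6a1+ library was replicate 1, the library with the fewest genes detected. These chains were singled out after their values were seen. For others, among them Col3a1, Col4a1 and Col18a1, replicate 1 was the highest Col6a1+ library.

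Ratios of 2 chains within a library were compared next, because the scaling of the library cancels in them. The position and length of each transcript cancel only where the same ratio is compared between groups, so a ratio by itself is not a true proportion. Of 5 pairs, 4 overlapped between the groups. The log2 ratio of Col5a2 to Col3a1 was -2.61, -2.72 and -1.90 in Col6a1+ CAFs and -3.36, -3.44 and -3.13 in Col6a1- CAFs. It was thus higher in each Col6a1+ library, by 0.90 on average, with an exact two-sided permutation p of 0.1, the smallest that 3 against 3 libraries can give (0.333 after adjustment over the 5 pairs). The ratio of Col4a1 to Col1a1 averaged -0.01 ± 0.57 against -0.63 ± 0.40 in Col6a1- CAFs (SD, n = 3 each, exact p = 0.2, 0.333 adjusted). Between libraries of the same replicate number it was higher in Col6a1+ CAFs by 0.85, 0.48 and 0.56.

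For chains of one trimer, the differences in proportion were within the spread of the libraries. Col1a1 to Col1a2 had a mean log2 ratio of 0.40 ± 0.58 against 0.69 ± 0.08 (SD, n = 3 each, exact p = 0.5), and the Col6a1+ libraries ranged from -0.12 to 1.02. Col4a1 to Col4a2 had 0.42 ± 0.60 against 1.13 ± 0.19 (exact p = 0.2), and the differences between libraries of the same number were -0.64, -0.14 and -1.34. The ratio of Col5a1 to Col1a1 was -1.43, -2.02 and -2.75 in Col6a1+ CAFs and -1.53, -2.13 and -2.76 in Col6a1- CAFs, a difference of 0.07 (exact p = 0.7), and 0.10, 0.11 and 0.01 within the pairs. For Col5a2 to Col3a1 the differences within the pairs were 0.75, 0.72 and 1.23. Tested within pairs, the 4 ratios whose differences had 1 sign gave an exact sign permutation p of 0.25, the smallest that 3 pairs allow, and Col1a1 to Col1a2 gave 0.5. Of all chain counts of a library, Col4a1 and Col4a2 took 20.2% to 30.4% in Col6a1+ CAFs and 14.5% to 17.4% in Col6a1- CAFs, and Col1a1, Col1a2 and Col3a1 took 43.7% to 56.2% and 57.9% to 61.1%.

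**Figure D3:**
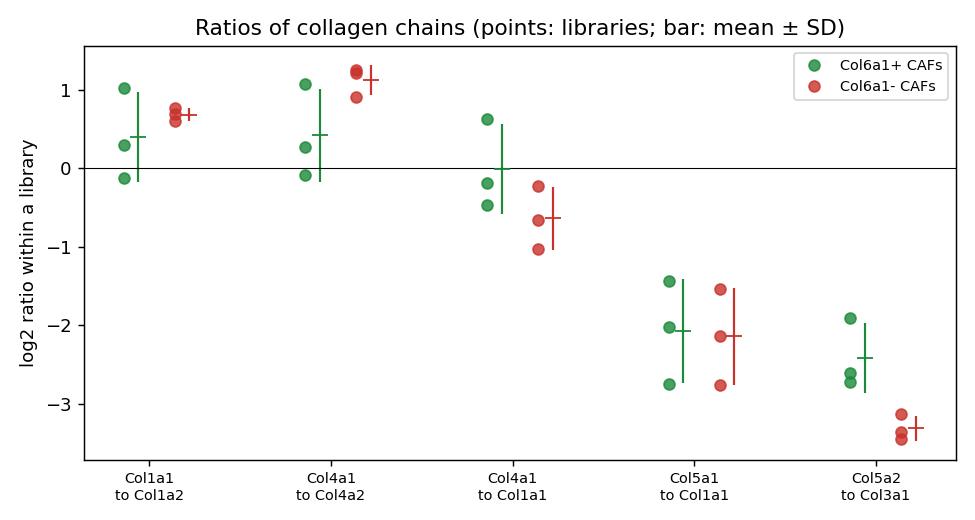
Log2 ratios of 5 pairs of chains within each library, with a point for each library and a bar for the group mean and SD. The libraries of Col6a1+ and Col6a1- CAFs overlap for every pair except Col5a2 to Col3a1, where the Col6a1+ libraries lie from -2.72 to -1.90 and the Col6a1- libraries from -3.44 to -3.13.

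Collagen chains need a set of enzymes and chaperones before they can form a matrix. Of 52 genes in 5 lists of this machinery and of the collagen receptors, 50 were tested. Of these, 17 were called higher in Col6a1+ CAFs, against 2.66% of all genes tested, and 0 lower, against 1.96% of all genes. The same shares apply beside the counts of each list below. The median log2 fold change of the 50 genes was 1.34, that of all genes tested -0.27. With the replicate block, none of the 17 passed over all genes tested (adjusted p of 0.0612 to 0.141).

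In the list of prolyl and lysyl modification, 7 of 15 genes were called higher. P3h2, a prolyl hydroxylase with a preference for collagen IV, held 98, 213 and 246 normalized counts in Col6a1+ CAFs and 4, 14 and 0 in Col6a1- CAFs, which gave a log2 fold change of 5.36 ± 0.93 (limma adjusted p = 0.0103, 0.0987 with the block). Crtap, which works with P3h1 in the hydroxylation of fibrillar chains, held 303, 288 and 470 against 114, 103 and 47, a log2 fold change of 2.06 ± 0.41 (adjusted p = 0.0199, 0.137 with the block). The shared subunit P4hb, which is also a general disulfide isomerase, differed by -0.01. Of 11 genes of folding and export, 2 were called higher, Fkbp10 with 354, 439 and 482 against 74, 158 and 62 (log2 fold change 2.22 ± 0.40, limma adjusted p = 0.0118, 0.0835 with the block) and Serpinh1, the collagen chaperone also known as HSP47, with 1880, 3258 and 2801 against 558, 954 and 1152 (1.60 ± 0.34, adjusted p = 0.0258, 0.0612 with the block).

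Among 9 tested genes of propeptide processing, 2 were called higher. Adamts2, which removes the amino propeptide of fibrillar chains, held 1597, 1609 and 3735 normalized counts against 61, 265 and 108, a log2 fold change of 4.13 ± 0.52 (limma adjusted p = 0.00215, 0.0678 with the block), and Bmp1, which cuts the carboxyl propeptide, held 505, 430 and 682 against 197, 233 and 137 (1.51 ± 0.33, adjusted p = 0.0274, 0.134 with the block). Both groups of libraries were separate for each of these genes. Of 6 crosslinking genes, 2 were called higher, the lysyl oxidases Loxl3 with 248, 121 and 125 against 15, 25 and 9 (3.28 ± 0.54, limma adjusted p = 0.00765, 0.0742 with the block) and Loxl2 with 1548, 1276 and 1355 against 455, 383 and 235 (2.01 ± 0.31, adjusted p = 0.00582, 0.0616 with the block). Lox itself held 176, 307 and 218 against 135, 219 and 47 and was not called (limma adjusted p = 0.385).

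Of 9 tested receptors, 4 were called higher, namely the integrin chains Itga1, Itga10 and Itgb1 and the discoidin receptor Ddr2. Itga10 held 184, 89 and 110 normalized counts against 13, 4 and 3, a log2 fold change of 4.23 ± 0.67 (limma adjusted p = 0.00656, 0.0612 with the block), and Itga1, whose integrin prefers collagen IV, held 582, 366 and 688 against 54, 21 and 30, a log2 fold change of 3.98 ± 0.43 (adjusted p = 0.00131, 0.0612 with the block). The epithelial receptor Ddr1 had a negative log2 fold change of -0.74 and was not called.

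**Figure D4:**
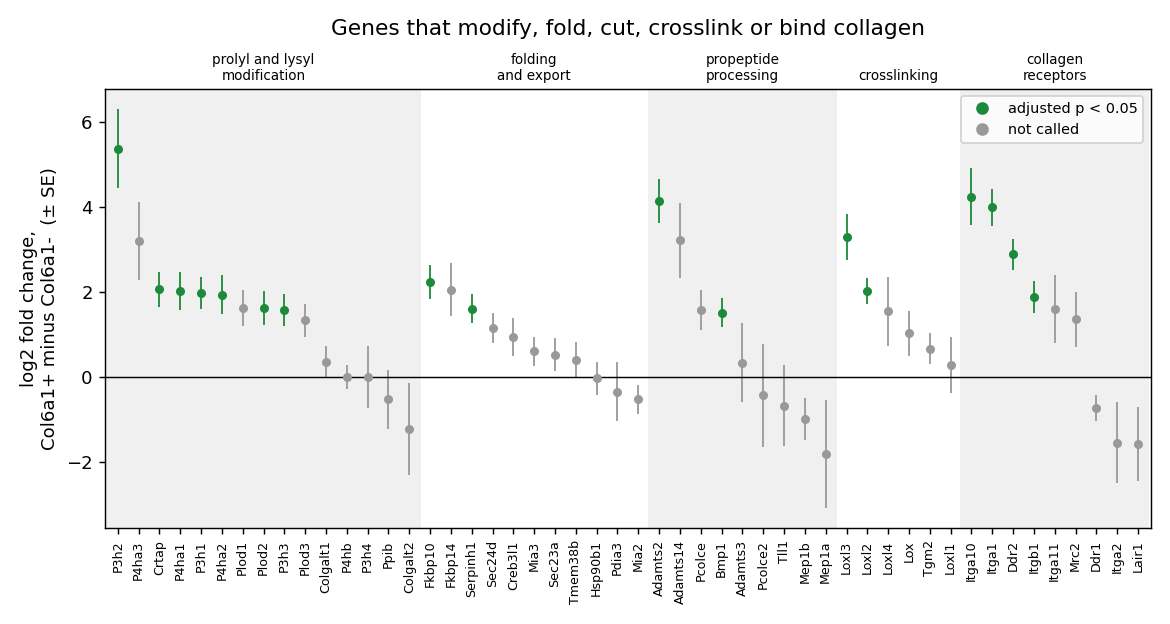
Log2 fold change (Col6a1+ minus Col6a1- CAFs) with its standard error for the 50 tested genes that modify, fold, process, crosslink or bind collagen, in 5 lists. The 17 genes called higher are green, led by P3h2 at 5.36, and no gene was called lower.

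The scaling of the libraries mattered for how many chains stood out. When the libraries were scaled to the mean of the 8 fibroblast markers, an alternative chosen after seeing the data, every fold change moved by -0.46, and 6 chains were called higher (1.04% of all genes) and 3 lower (3.84% of all genes), against 13 and 2. When they were scaled to Dcn and Vim, the shift was -0.91, and 9 chains were called higher (1.5% of all genes) and 4 lower, where 15.0% of all genes were called lower. Both shifts were taken off the log2 values, so levels at or near 0 moved too. Col20a1, with a mean of 1.33 in both groups, went from 0.00 to -0.91 with Dcn and Vim. Lower calls of low genes under these scalings are thus not read as fewer transcripts. Col4a1, Col4a2, Col5a3 and Col18a1 were called higher under both, whereas Col3a1 and Col16a1 were called under neither (log2 fold changes of 0.90 and 0.40 with Dcn and Vim). Col1a1, Col1a2, Col5a1, Col5a2 and Col27a1 were called with Dcn and Vim but not with the fibroblast markers (limma adjusted p of 0.23, 0.118, 0.179, 0.0608 and 0.238). Col5a3 was thus the only fibrillar chain called higher with the fibroblast markers. Col10a1 and Col19a1 were called with the fibroblast markers but not with Dcn and Vim.

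**Figure D5:**
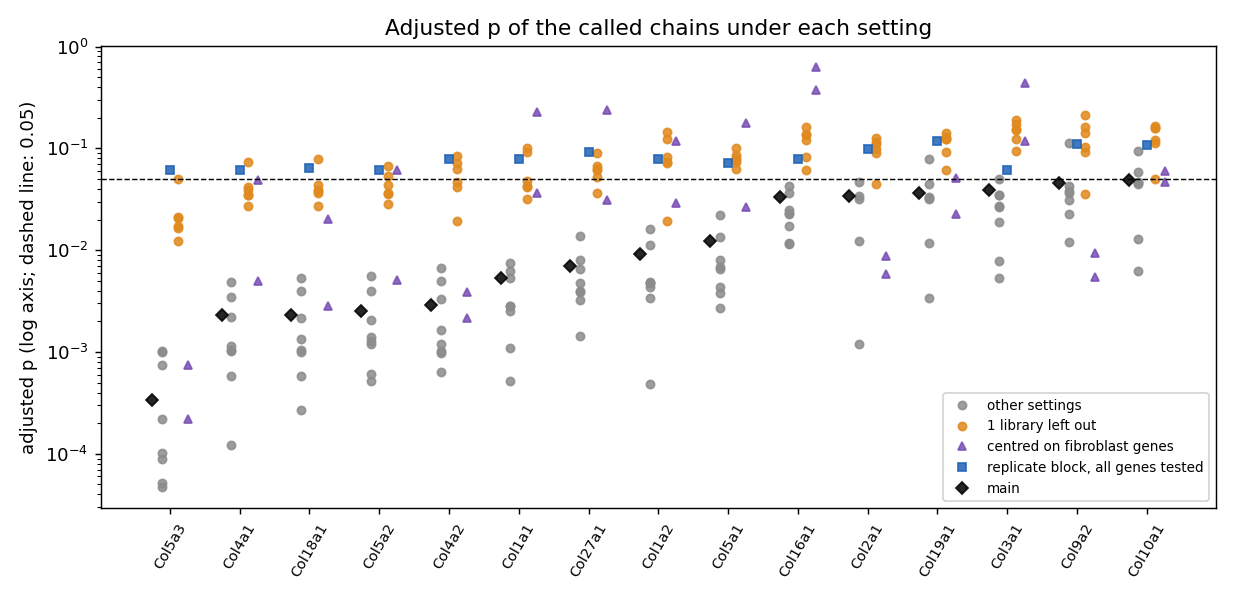
Adjusted p (log axis) of the 15 called chains under each setting, with the threshold of 0.05 as a dashed line. The blue squares of the replicate block over all genes lie at 0.0612 to 0.118, above the line for every chain, and the values with 1 library left out fall on both sides of it.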

How the data were processed

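The libraries were QuantSeq 3′ mRNA libraries of sorted CAFs, 3 of each population, grouped and numbered by their titles. The authors mapped the reads to mm10 with TopHat2 and Bowtie2, counted them per gene and applied the size factors of DESeq. Their deposited table gives the log2 of the normalized count plus 1, which returned whole normalized counts (within 0.001) in 100% of the values. The authors' own fold changes, p-values and false discovery rates were not used, nor were 6 columns of per-sample values.

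With limma 3.58.1 in R 4.3.3, the deposited log2 values of the 26402 genes with at least 1 normalized count in sum were fitted with a group term and moderated variances following the mean (eBayes with trend). The prior had 6.48 degrees of freedom beside 4 residual ones, and adjustment over all genes followed Benjamini and Hochberg. A fold change understates the change of low genes because of the pseudocount of 1. The p-values measure the spread between pools of tumors. The script was tested on simulated counts. Ratios, counting intervals and plots were made with Python 3.11.15, pandas 2.3.3, NumPy 2.4.6, SciPy 1.17.1 and Matplotlib 3.10.9. Intervals and limits for a level of 0 cover counting error only and take normalized counts as reads. Where it could be estimated, a read stood for 0.67 to 1.33 normalized counts, so these intervals and limits are approximate.

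The study's legend gives 3 samples, each a pool of tumors sorted into both populations. The deviations from the group means, over 13515 genes with a mean of at least 10, had correlations of 0.245, 0.126 and 0.144 between libraries of the same number and of -0.245 to 0.150 between others. The value of 0.150, for Col6a1+ replicate 2 and Col6a1- replicate 3, exceeded 0.126 and 0.144, so this check cannot establish pairs. Reading the numbers as pairs is an assumption.

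Values in every library are given for chains with an adjusted p under 0.05, chains with a mean of at least 100 in either group and their partners in a trimer, 26 chains. From each list of pathway genes, up to 2 called genes with the largest fold change were named, and other genes were named after their values were seen. For 2 symbols with 2 rows the row with the higher mean was used. The chains, lists and tests were chosen with earlier results of these data known. Alternatives were library size alone, median centring, count minimums of 10, a pseudocount of 0.1, limma-voom, the replicate block, array quality weights, leaving out each library and unadjusted p-values. The block combined with a minimum mean of 10, the scalings to fibroblast genes and the ratios within pairs were added after seeing the data.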

Additional observations from a re-analysis of the deposited data

How the results depend on the processing

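The 15 calls kept their direction under every alternative in which the chain was tested. The number of chains called higher (13) fell to 0 with the replicate block over all genes and to 6 with the libraries scaled to the fibroblast markers. The number called lower (2) was 1 with a mean of at least 10, 0 with at least 10 in every library, 1 with a pseudocount of 0.1, 0 with the replicate block, 1 with the block and a mean of at least 10, and 4 when scaled to Dcn and Vim. Fewer genes tested account for the chains lost with the count minimums, since Col2a1 was then not tested, nor Col9a2 with the stricter minimum, and the cause of the other changes was not tested. Without 1 library each, 0 to 10 chains were called higher and 0 to 2 lower, with 0 and 0 without Col6a1- replicate 1, 4 and 0 without Col6a1- replicate 2 or 3, 6 and 0 without Col6a1+ replicate 2 or 3, and 10 and 2 without Col6a1+ replicate 1.

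The median log2 fold change of the chains, 1.30, became 2.19 with a mean of at least 10, with and without the replicate block, 2.16 with at least 10 in every library, 0.84 when scaled to the fibroblast markers and 0.40 when scaled to Dcn and Vim, and 1.14 to 1.46 without 1 library each. These scalings take the same amount off every log2 fold change, also for genes at 0 counts, whose level no scaling changes. Col14a1, near 0, went to -0.41 and -0.86. Col4a3, at 0 in every Col6a1- library, went to -0.24 with Dcn and Vim, a sign that its counts do not bear out. The medians under these scalings include such low chains. Col14a1 ranged from -0.30 to 0.24 without 1 library each, at -0.08 when Col6a1+ replicate 2 was left out and -0.30 when Col6a1- replicate 3 was. The difference in the ratio of Col5a1 to Col1a1, 0.07, ranged from -0.25 to 0.41, at -0.25 when Col6a1+ replicate 1 was left out and -0.24 when Col6a1- replicate 3 was. The other ratios kept their sign but moved, Col1a1 to Col1a2 from -0.29 to between -0.60 and -0.03, Col4a1 to Col1a1 from 0.63 to between 0.31 and 0.85, Col4a1 to Col4a2 from -0.71 to between -1.04 and -0.46, and Col5a2 to Col3a1 from 0.90 to between 0.64 and 1.05.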
